A study of Saccharomyces cerevisiae with 24 samples.

Results

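The first 15 min after release from G1 were examined in 2 budding yeast (Saccharomyces cerevisiae) strains, at 5, 10 and 15 min in each. These 6 libraries were taken from a series of 24, by the strain and time given in the sample titles. The sml1Δ SSDDCS strain over-expressed Sld2, Sld3, Dpb11, Dbf4, Cdc45 and Sld7 from galactose promoters, and the sml1Δ strain was its control. The comparison asks which parts of the genome are copied first when these initiation factors are in excess.

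Both strains were W303 MATa cells with the alleles can1-100 and rad5-535, the nutritional markers leu2-3, 112 and his3-11, 15, and the alleles trp1-1, ura3-1 and ade2-1. Both also lacked SML1, an inhibitor of ribonucleotide reductase. The gene was replaced with a hygromycin marker in sml1Δ SSDDCS (HphNT in the labels) and with URA3 in sml1Δ. In sml1Δ SSDDCS the factor genes stood in pairs on both sides of a GAL1-10 promoter, at the leu2 locus (Sld7 and Cdc45), at his3 (a Sld3 allele and a Dbf4 allele, both marked A) and at trp1 (Sld2 and Dpb11). Cultures grew in raffinose and were arrested in G1 with alpha factor. Both strains then received galactose for 30 min and were released into galactose medium. Each strain and timepoint had 1 library, so no test was possible, and every difference below describes these libraries and cultures. The 3 timepoints of a strain also share its single G1 library as denominator.

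A replication origin starts as a licensed site, where the origin recognition complex and Cdc6 load the Mcm2-7 helicase in G1. In S-phase, Dbf4-dependent kinase and cyclin-dependent kinase bring Sld3, Sld7, Cdc45, Sld2 and Dpb11 to that site, the helicase is activated and 2 forks leave in opposite directions. Yeast origins do not all fire together. Centromere-proximal origins are known to fire early, and origins near telomeres and at the silent mating-type loci are known to fire late or not at all. In sequenced DNA, a fired origin is seen as a peak of copy number that becomes higher and wider with time.

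The deposited value is the ratio of reads in a 1-kb bin at one timepoint to reads in that bin in G1, scaled by the authors to a bulk factor from flow cytometry. The relative copy number used here is the ratio divided by that factor, given as percent above the bulk value of the table, so that a bin at 0% is copied as much as the genome as a whole. Profiles were smoothed with a moving mean over 9 bins. A bin or an origin was called risen when its smoothed value was 5% or more above the bulk value. The noise (SD) of a 9-bin mean, from the differences between neighbouring bins, was 1.71, 1.89 and 1.72 percentage points at 5, 10 and 15 min in sml1Δ SSDDCS, and 1.31, 1.33 and 1.38 points in sml1Δ. Read depth is unknown, because the tables hold no counts.

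The sequences of 9 origins on which the strains were compared are shown first, 5′ to 3′ on the plus strand of assembly R64, with matches to the 11-base ARS consensus (the core element bound by the origin recognition complex) in capitals. ARS1420, ARS503 and ARS728 differed most in favour of sml1Δ SSDDCS at 15 min, ARS1213 and ARS1218 were high in both strains, and ARS901, ARS110 and ARS409.5 were lower in sml1Δ SSDDCS. ARS1 is shown because it adjoins TRP1, the locus that carries the Sld2 and Dpb11 insertion.
ARS1420 (chrXIV:498970-499154, between FKH2 and YNL067W-B): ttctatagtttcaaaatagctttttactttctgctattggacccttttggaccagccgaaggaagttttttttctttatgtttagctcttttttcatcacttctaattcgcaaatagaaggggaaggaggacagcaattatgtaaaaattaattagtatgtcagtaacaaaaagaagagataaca
ARS503 (chrV:6378-6453, between YEL075C and YEL073C): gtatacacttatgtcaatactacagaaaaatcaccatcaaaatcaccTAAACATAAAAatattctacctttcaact
ARS728 (chrVII:715312-715377, between CLD1 and YGR111W): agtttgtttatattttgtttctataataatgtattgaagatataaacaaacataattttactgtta
ARS1213 (chrXII:373254-373332, between HOG1 and AVL9): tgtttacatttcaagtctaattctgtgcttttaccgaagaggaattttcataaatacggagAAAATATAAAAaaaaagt
ARS1218 (chrXII:603024-603132, between ECM22 and CDC42): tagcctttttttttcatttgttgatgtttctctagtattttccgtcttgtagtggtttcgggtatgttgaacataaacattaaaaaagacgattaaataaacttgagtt
ARS901 (chrIX:214624-214754, overlapping THS1): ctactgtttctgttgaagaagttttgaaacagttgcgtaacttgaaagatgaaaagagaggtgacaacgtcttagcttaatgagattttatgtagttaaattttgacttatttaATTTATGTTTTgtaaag
ARS110 (chrI:176157-176404, between CDC15 and PAU7): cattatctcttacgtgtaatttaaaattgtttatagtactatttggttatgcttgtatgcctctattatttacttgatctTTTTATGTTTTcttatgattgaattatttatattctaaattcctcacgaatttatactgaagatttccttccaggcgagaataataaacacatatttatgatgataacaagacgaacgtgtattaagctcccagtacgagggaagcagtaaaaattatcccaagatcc
ARS409.5 (chrIV:235937-236185, overlapping CDC48): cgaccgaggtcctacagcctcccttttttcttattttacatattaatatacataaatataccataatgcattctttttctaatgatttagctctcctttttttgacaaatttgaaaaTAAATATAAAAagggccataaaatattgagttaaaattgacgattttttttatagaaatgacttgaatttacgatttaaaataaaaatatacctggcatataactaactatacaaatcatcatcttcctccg
ARS1 (chrIV:462567-462622, between TRP1 and GAL3): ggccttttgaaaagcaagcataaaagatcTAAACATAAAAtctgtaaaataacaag

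An exact consensus match, searched on both strands, lay in 121 of the 352 annotated origins when each was read as a 300-base window on its midpoint (34.4%), and in 756 of 40229 adjacent 300-base windows of the genome (1.88%). Among the origins compared at 15 min, a match was present in 42 of 127 that had risen in sml1Δ SSDDCS alone (33.1%), in 31 of 87 that had risen in both strains (35.6%) and in 29 of 100 that had risen in neither (29.0%). These shares describe letters in a window and not protein binding.

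The genome as a whole was copied sooner in sml1Δ SSDDCS. The bulk factors at 5, 10 and 15 min were 1.02, 1.107 and 1.28 in sml1Δ SSDDCS, against 1.01, 1.021 and 1.139 in sml1Δ. Since the authors scaled each table to its factor, the median ratio over bins followed it, at 1.02, 1.107 and 1.275 in sml1Δ SSDDCS and at 1.01, 1.021 and 1.138 in sml1Δ. Had sml1Δ SSDDCS been scaled to the factors of sml1Δ, its medians at 10 and 15 min would be 1.021 and 1.135, so this difference in level rests on flow cytometry. The differences between bins, in contrast, come from the sequencing reads alone.

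Copy number first departed from a flat profile at 10 min in sml1Δ SSDDCS and at 15 min in sml1Δ. The SD between bins after subtraction of the noise was 1.10%, 1.501% and 5.13% at 5, 10 and 15 min in sml1Δ SSDDCS, against 0.978%, 0.716% and 3.32% in sml1Δ. Bins called risen made up 0.407%, 1.91% and 19.7% of all smoothed bins in sml1Δ SSDDCS, against 0.0797%, 0.0532% and 7.49% in sml1Δ. The 5 min tables thus held almost no risen bins in either strain, and the 10 min table of sml1Δ looked like its 5 min table. By count, 46, 216 and 2230 bins had risen at the 3 timepoints in sml1Δ SSDDCS, against 9, 6 and 845 in sml1Δ.

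The smoothed profiles of the strains were partly alike at 15 min. Before 15 min the profile of sml1Δ was near flat, so a low r at those times does not show unlike profiles. Across smoothed bins, Pearson's r between sml1Δ SSDDCS and sml1Δ was 0.015 at 5 min, 0.0886 at 10 min and 0.622 at 15 min, over 11286 or 11287 bins. Between sml1Δ SSDDCS at 10 min and sml1Δ at 15 min, r was 0.314. Smoothing makes neighbouring bins alike, so these coefficients describe the profiles only. With the GC content of the bin, the smoothed values at 5, 10 and 15 min had an r of 0.0868, 0.0181 and -0.0360 in sml1Δ SSDDCS, and of -0.0054, 0.138 and -0.0266 in sml1Δ. At 10 min the r with GC content in sml1Δ was thus above that between the strains. Of the 2230 bins risen in sml1Δ SSDDCS at 15 min, 692 (31.03%) had also risen in sml1Δ. The same 692 bins were 81.9% of the 845 that had risen in sml1Δ.

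Copy number rose mostly around annotated origins in both strains. The RefSeq annotation lists 352 origins, and 319 of them had a smoothed value in all 6 tables. Bins within 2 kb of an origin averaged -0.153%, 2.06% and 7.30% relative to the bulk value at 5, 10 and 15 min in sml1Δ SSDDCS, against 0.207%, 0.306% and 3.22% in sml1Δ. Bins 15 kb or more from any origin averaged 0.177%, -0.0803% and -2.57% in sml1Δ SSDDCS, against 0.0539%, 0.0162% and -1.17% in sml1Δ. The contrast of origins over distant bins was therefore -0.329, 2.14 and 9.88 percentage points in sml1Δ SSDDCS, against 0.153, 0.289 and 4.39 points in sml1Δ.

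**Figure D1:**
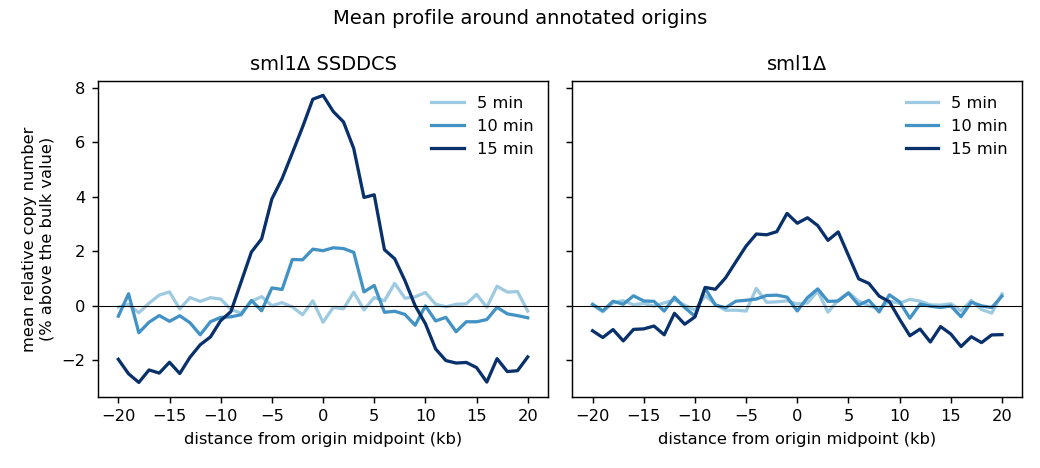
Mean relative copy number (percent above the bulk value, single bins, not smoothed) by distance from the midpoint of annotated origins in kb, at 5, 10 and 15 min, for sml1Δ SSDDCS (left) and sml1Δ (right). The 10 min line of sml1Δ SSDDCS already stands 2.03% above the bulk value at the midpoint, while that of sml1Δ is at -0.187%, and at 15 min the peak reaches 7.73% in sml1Δ SSDDCS and 3.03% in sml1Δ.

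The mean peak around origins was higher in sml1Δ SSDDCS at 15 min but no wider where it met the bulk value. Bins 4 to 6 kb from an origin averaged 3.27% in sml1Δ SSDDCS and 1.88% in sml1Δ, and bins 8 to 10 kb away averaged -1.14% in sml1Δ SSDDCS and -0.486% in sml1Δ. The mean thus fell below the bulk value at a similar distance in both strains. Each strain was divided by its own bulk factor, so this distance does not measure how far forks had moved. At 10 min the peak of sml1Δ SSDDCS was narrow, with 2.08% at 1 to 2 kb, 1.70% at 2 to 4 kb and 0.0876% at 4 to 6 kb.

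At 15 min, 214 of 320 measured origins (66.9%) had risen in sml1Δ SSDDCS, against 92 of 319 (28.8%) in sml1Δ. Over all bins the share was 19.7% in sml1Δ SSDDCS and 7.49% in sml1Δ. At 10 min, 23 of 320 origins (7.19%) had risen in sml1Δ SSDDCS, where 1.91% of all bins had, and 0 of 319 had risen in sml1Δ, where 0.0532% of bins had. The 10 min count of sml1Δ SSDDCS depended on the settings, with 49 origins for a 5-bin and 4 for a 15-bin window, and 91 at a threshold of 3% and 2 at 8%. At 5 min a single origin had risen in each strain, ARS1420 at 5.46% in sml1Δ SSDDCS and ARS425 at 5.19% in sml1Δ, beside 0.407% of all bins in sml1Δ SSDDCS and 0.0797% in sml1Δ. The values over all measured origins at 15 min ranged from -6.84% to 17.1% with a median of 6.97% in sml1Δ SSDDCS, and from -9.31% to 12.4% with a median of 2.32% in sml1Δ. The 25th to 75th percentile range was 4.11% to 9.14% in sml1Δ SSDDCS and 0.468% to 5.61% in sml1Δ, so the ranges overlapped.

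Most origins that had risen in sml1Δ had also risen in sml1Δ SSDDCS. Of the 319 origins compared at 15 min, 87 had risen in both strains, 127 in sml1Δ SSDDCS alone, 5 in sml1Δ alone and 100 in neither. The 87 shared origins were 40.7% of the sml1Δ SSDDCS list and 94.6% of the sml1Δ list. With a threshold of 8%, 26 of the 36 origins risen in sml1Δ were shared, and with a 15-bin window 54 of 64 were. With lists of equal size, the 92 highest origins of each strain, 52 (56.5%) were shared, and of the 23 highest origins of each strain 7 (30.4%) were shared. Unrelated lists of 92 would share about 28.8% (92 of 319), and unrelated lists of 23 would share less. The order among origins was thus only partly the same, with Pearson's r of 0.567 and Spearman's rho of 0.520 across the 319 origins, which are not independent where they are neighbours. The noise was 1.72 points in sml1Δ SSDDCS and 1.38 in sml1Δ, against SDs over origins of 4.11 and 3.91 points. The part of noise in these coefficients and in the order was not tested.

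The difference at single origins was mostly positive. SSDDCS minus sml1Δ relative copy number at 15 min had a median of 3.45 percentage points (25th percentile 1.26, 75th percentile 6.03, error 2.21 points from the noise of both tables). This error is for a full window of 9 bins, which 279 origins had, and it is larger at the other 40. The difference was above 0 at 263 origins and below 0 at 56. A difference of 5 points or more was seen at 111 origins (34.8% of 319) in favour of sml1Δ SSDDCS and at 5 origins in favour of sml1Δ, where 10.9% of all smoothed bins were higher and 9.05% were lower by that much. The difference at 10 min had a median of 1.52 points.

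**Figure D2:**
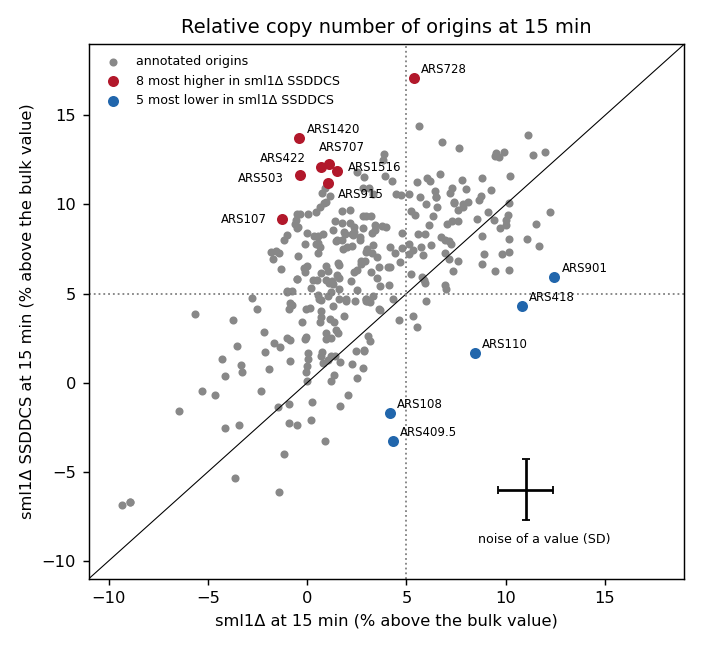
Smoothed relative copy number (percent above the bulk value) of each annotated origin at 15 min in sml1Δ SSDDCS (vertical axis) and in sml1Δ (horizontal axis), with the line of equality, dotted lines at 5% and a cross for the noise (SD) of a 9-bin mean. Most points lie above the line of equality, 263 of 319, and the 5 named points below it are the origins most lower in sml1Δ SSDDCS.

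The excess of risen origins in sml1Δ SSDDCS lay mostly among origins that replicate later in the control. Origins were ranked by their mean relative copy number in the sml1Δ tables at 25 and 30 min, which played no other part here, and divided into quintiles. From the earliest to the latest quintile, 49 of 64, 51 of 64, 45 of 63, 40 of 64 and 29 of 64 origins had risen at 15 min in sml1Δ SSDDCS, against 44, 32, 13, 3 and 0 in sml1Δ. The earliest quintile had medians of 7.43% in sml1Δ SSDDCS and 7.22% in sml1Δ. The third quintile had medians of 7.34% in sml1Δ SSDDCS and 2.18% in sml1Δ, and the latest quintile had medians of 4.71% in sml1Δ SSDDCS and 0.999% in sml1Δ. The latest quintile was therefore still the lowest in sml1Δ SSDDCS, and the second quintile, at 8.18%, was the highest. The ranking tables share a G1 library with the sml1Δ values but not with those of sml1Δ SSDDCS.

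**Figure D3:**
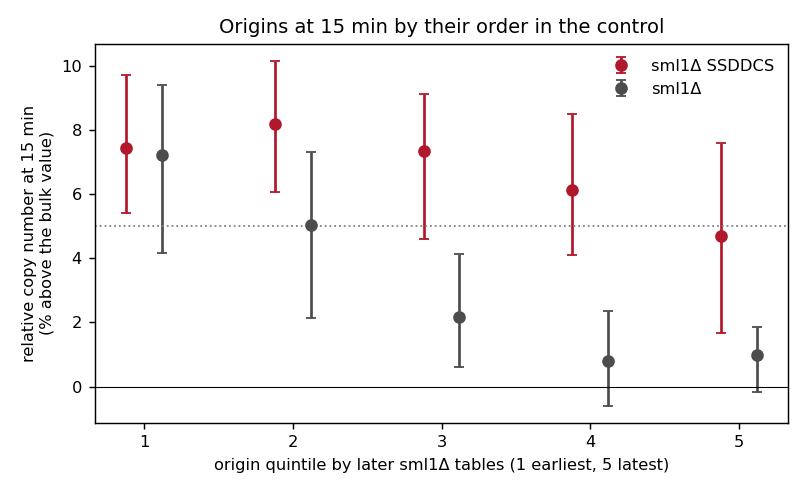
Median (points) and 25th to 75th percentile (bars) of the smoothed relative copy number of origins at 15 min, in percent above the bulk value, for sml1Δ SSDDCS (left of each pair) and sml1Δ (right), by the quintile of origins in the later sml1Δ tables. In sml1Δ SSDDCS the median stays between 4.71% and 8.18%, while in sml1Δ it is 7.22% in the earliest quintile and 0.999% in the latest.

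Origins long used as early and late models showed the same pattern. ARS305, ARS306, ARS307, ARS315, ARS606, ARS607 and ARS1 are well studied early origins, and 5 of the 7 had risen at 15 min in each strain, with medians of 7.21% in sml1Δ SSDDCS and 5.54% in sml1Δ. The share over all measured origins was 66.9% in sml1Δ SSDDCS, near 5 of 7, and 28.8% in sml1Δ. ARS607, an early and efficient origin of chromosome VI, was at -0.719%, 2.68% and 10.3% at 5, 10 and 15 min in sml1Δ SSDDCS, against -1.57%, 1.06% and 8.65% in sml1Δ. ARS305, an early origin of chromosome III, was at -2.84%, 2.29% and 9.66% in sml1Δ SSDDCS, against 0.495%, 0.773% and 7.59% in sml1Δ. The 15 min values of ARS607 and ARS305 differed between strains by 1.599 and 2.07 points, less than the error of a difference.

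The late models ARS522, ARS603, ARS609, ARS1411, ARS1412, ARS1413 and ARS1414 were all higher in sml1Δ SSDDCS at 15 min. Of these 7, 5 had risen in sml1Δ SSDDCS and 0 in sml1Δ, with a median of 5.85% in sml1Δ SSDDCS (range 4.87% to 9.67%) and 1.22% in sml1Δ (range -0.439% to 3.52%), so the strains did not overlap. Of all origins, 66.9% had risen in sml1Δ SSDDCS and 28.8% in sml1Δ. ARS1414 was at 3.17%, 2.13% and 9.67% at 5, 10 and 15 min in sml1Δ SSDDCS, against 2.04%, 1.61% and 2.17% in sml1Δ. ARS603 was at 0.501%, 2.45% and 7.81% in sml1Δ SSDDCS, against -0.506%, -2.04% and 0.537% in sml1Δ. ARS1412 was at 0.436%, 4.63% and 7.13% in sml1Δ SSDDCS, against 0.121%, -0.914% and -0.439% in sml1Δ. These 3 origins differed by 7.28 to 7.57 points, and ARS522 differed least, by 1.56 points.

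The silent origins beside HML lay below the bulk value in both strains at 15 min. ARS302, ARS303 and ARS320 lie within the silent mating-type region of chromosome III, and ARS303 and ARS320 share a bin. ARS302 was at -1.06%, 1.45% and -6.84% at 5, 10 and 15 min in sml1Δ SSDDCS, against 0.710%, -3.56% and -9.31% in sml1Δ. ARS301, the other origin there, had no smoothed value. ARS810, which lies in the CUP1 repeats of chromosome VIII, was at 1.85%, 2.77% and 4.49% in sml1Δ SSDDCS, against 1.40%, -0.833% and -0.849% in sml1Δ. Reads from the CUP1 copies cannot be assigned to one copy, and this value is uncertain.

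In sml1Δ SSDDCS, 23 origins had risen by 10 min with the 9-bin window and the 5% threshold. All 23 had also risen at 15 min in that strain, whose 2 tables share a G1 library, and 14 of them (60.9%) had risen at 15 min in sml1Δ. These 14 were 15.2% of the 92 origins risen in sml1Δ. Of all origins, 66.9% had risen at 15 min in sml1Δ SSDDCS and 28.8% in sml1Δ. At 10 min 7.19% had risen in sml1Δ SSDDCS. ARS1217, overlapping YLR177W, was the highest, at 2.35%, 10.1% and 12.9% at 5, 10 and 15 min in sml1Δ SSDDCS, against 0.748%, 0.120% and 9.53% in sml1Δ. ARS1220, next to the glycogen synthase gene GSY2, was at 3.52%, 8.93% and 13.5% in sml1Δ SSDDCS, against -1.09%, 2.67% and 6.79% in sml1Δ. Both are on chromosome XII, and both had risen in each strain by 15 min.

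ARS707, the third at 10 min, was high in sml1Δ SSDDCS alone. It lies between ATG1, which encodes the autophagy kinase, and TOS3. It was at -0.185%, 7.58% and 12.3% at 5, 10 and 15 min in sml1Δ SSDDCS, against -1.17%, -0.979% and 1.11% in sml1Δ. ARS209, beside the divergent histone genes HHF1 and HHT1, had risen in both strains by 15 min, with -1.20%, 5.74% and 6.63% in sml1Δ SSDDCS and 2.60%, 0.955% and 8.80% in sml1Δ. ARS1612, by the checkpoint kinase gene RAD53, had the lowest 10 min value of the 23, at 5.11% in sml1Δ SSDDCS and 0.762% in sml1Δ.

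The highest origins of sml1Δ SSDDCS at 15 min, each 10 kb or more from a higher one, were ARS728, ARS1312, ARS1213, ARS1420, ARS1220, ARS719, ARS922 and ARS1218, at 12.9% to 17.1%. In sml1Δ these 8 were at -0.390% to 11.97%, and all but ARS1420 had risen. The highest origins of sml1Δ were ARS901, ARS1422, ARS1218, ARS453, ARS428, ARS737, ARS1213 and ARS1511, at 11.1% to 12.4%, and all 8 had risen in sml1Δ SSDDCS, at 5.91% to 13.9%. ARS1213 and ARS1218 stood on both lists. The windows of ARS1422, ARS1312, ARS1220 and ARS728 held only 5, 6, 7 and 8 bins with a value, which raises their noise. The noise was 1.85 points at ARS1422 in sml1Δ and 2.11 points at ARS1312 in sml1Δ SSDDCS, so close ranks are uncertain.

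ARS1213, next to the stress kinase gene HOG1, was at 2.59%, 7.45% and 13.9% at 5, 10 and 15 min in sml1Δ SSDDCS, against -0.880%, 1.65% and 11.1% in sml1Δ. ARS1218, beside the polarity GTPase gene CDC42, was at 1.17%, 3.98% and 12.9% in sml1Δ SSDDCS, against -1.18%, 1.19% and 11.97% in sml1Δ. Both were near the top in each strain, and their differences were 2.78 points at ARS1213 and 0.947 points at ARS1218, where the error of a difference was 2.21 points. Of their sequences, the one of ARS1213 holds a consensus match and the one of ARS1218 does not.

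The 8 origins with the largest positive difference at 15 min were ARS1420, ARS503, ARS728, ARS422, ARS707, ARS107, ARS1516 and ARS915, with 10.1 to 14.1 points. ARS1420, next to the forkhead transcription factor gene FKH2, was at 5.46%, 6.03% and 13.7% at 5, 10 and 15 min in sml1Δ SSDDCS, against -0.825%, 0.718% and -0.390% in sml1Δ. It was already above the bulk value at 5 min in sml1Δ SSDDCS, so its gain between 5 and 15 min was 8.27 points there and 0.435 points in sml1Δ. ARS728 was at 2.82%, 6.10% and 17.1% in sml1Δ SSDDCS, against 0.507%, 1.996% and 5.38% in sml1Δ, and was the highest origin of all tables.

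ARS503 lies 6.42 kb from the left end of chromosome V, among subtelomeric genes. It was at -2.69%, -4.95% and 11.7% at 5, 10 and 15 min in sml1Δ SSDDCS, against 1.49%, 1.31% and -0.386% in sml1Δ. Only 5 bins of its window had a value, which raises its noise at 15 min to 2.31 points in sml1Δ SSDDCS and 1.85 points in sml1Δ. ARS422, between ECM18 and SWF1, was at -0.0220%, 1.496% and 12.1% in sml1Δ SSDDCS, against 1.74%, 2.15% and 0.712% in sml1Δ. ARS1516, beside ADE2 (a gene of purine synthesis), was at 1.93%, 5.42% and 11.9% in sml1Δ SSDDCS, against -0.341%, 2.07% and 1.51% in sml1Δ. All 8 origins but ARS728 lay below 2% at 15 min in sml1Δ.

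**Figure D4:**
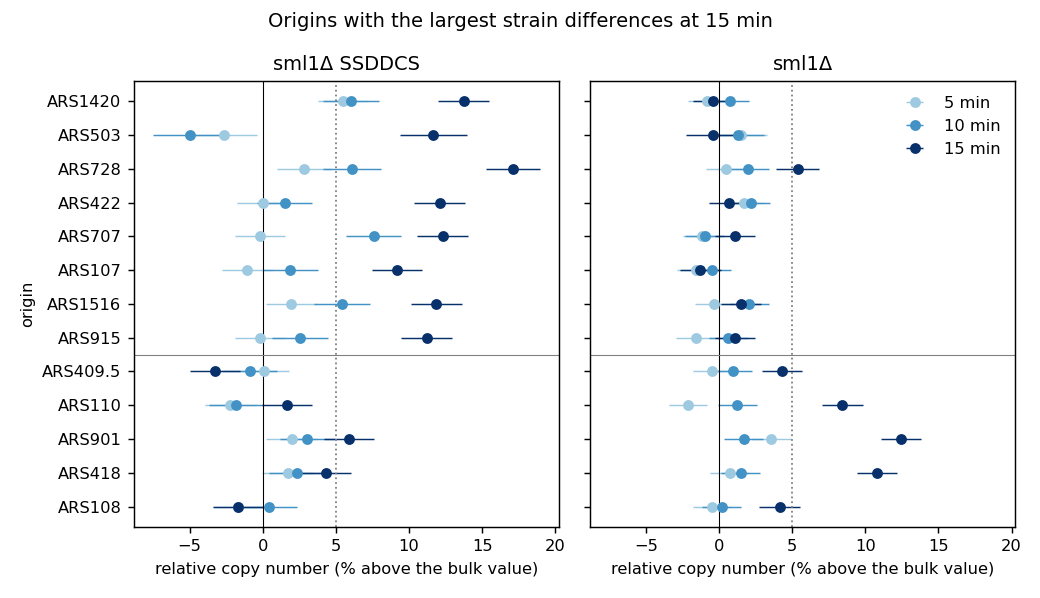
Smoothed relative copy number (percent above the bulk value) at 5, 10 and 15 min of the 8 origins with the largest and the 5 with the most negative strain difference at 15 min, in sml1Δ SSDDCS (left) and sml1Δ (right). Bars are the noise (SD) for the bins in each window, and the 15 min points of the upper 8 lie between 9.17% and 17.1% in sml1Δ SSDDCS and between -1.27% and 5.38% in sml1Δ.

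The 5 origins with the most negative difference were ARS409.5, ARS110, ARS901, ARS418 and ARS108, of which ARS110 and ARS108 are on chromosome I. ARS901, overlapping the threonyl-tRNA synthetase gene THS1, was at 1.96%, 3.04% and 5.91% at 5, 10 and 15 min in sml1Δ SSDDCS, against 3.58%, 1.70% and 12.4% in sml1Δ. ARS110, by the mitotic exit kinase gene CDC15, was at -2.21%, -1.82% and 1.66% in sml1Δ SSDDCS, against -2.11%, 1.26% and 8.44% in sml1Δ. ARS409.5 was at 0.0760%, -0.903% and -3.27% in sml1Δ SSDDCS, against -0.473%, 0.947% and 4.31% in sml1Δ. The difference was -6.54 points at ARS901, -6.78 points at ARS110 and -7.58 points at ARS409.5.

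A lower relative copy number at these 5 origins did not mean fewer copies. With the bulk factors, 23.8% of cells had replicated ARS409.5 at 15 min in sml1Δ SSDDCS, against 18.8% in sml1Δ. ARS901 was replicated in 35.6% of cells in sml1Δ SSDDCS and in 28.1% in sml1Δ. Over all origins the median was 36.9% in sml1Δ SSDDCS and 16.5% in sml1Δ, and 309 origins in sml1Δ SSDDCS and 19 in sml1Δ were replicated in 25% of cells or more. These percentages rest on the flow cytometry factors.

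**Figure D5:**
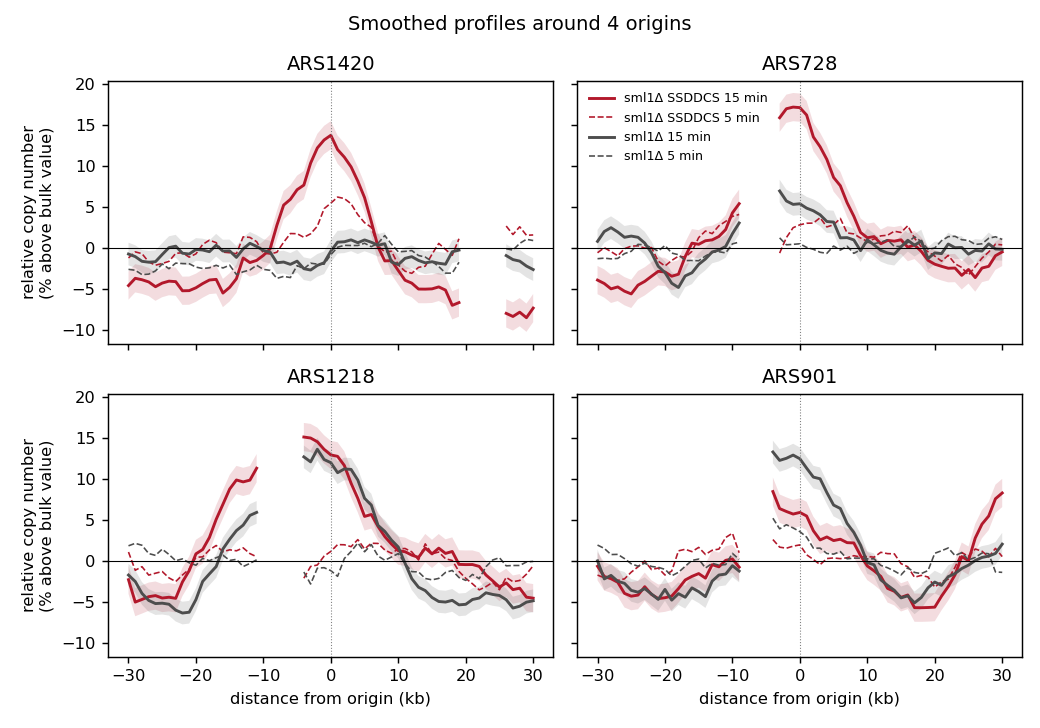
Smoothed relative copy number (percent above the bulk value) within 30 kb of ARS1420, ARS728, ARS1218 and ARS901 at 15 min (solid, band for the noise SD of a 9-bin mean) and 5 min (dashed) in sml1Δ SSDDCS and sml1Δ. ARS1420 has a peak of 13.7% in sml1Δ SSDDCS and -0.390% in sml1Δ, ARS1218 is at 12.9% in sml1Δ SSDDCS and 11.97% in sml1Δ, and ARS901 is at 5.91% in sml1Δ SSDDCS and 12.4% in sml1Δ, while gaps are bins without a value.

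ARS1 was among the 5 origins that had risen in sml1Δ alone, with ARS418, ARS110, ARS822 and ARS1210. It was at -1.25%, 1.06% and 3.11% at 5, 10 and 15 min in sml1Δ SSDDCS, against 0.902%, 0.947% and 5.54% in sml1Δ. The difference of -2.43 points was close to the error of a difference. ARS1 adjoins TRP1, where sml1Δ SSDDCS carries its Sld2 and Dpb11 insertion, and the part of the insertion in this value was not tested. ARS822 and ARS1210 differed by -1.36 and -1.56 points.

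A comparison at the nearest bulk copy number gave another picture than one at equal time. The bulk factor of sml1Δ SSDDCS at 10 min, 1.107, was nearest to that of sml1Δ at 15 min, 1.139. At these timepoints the contrast between bins was 1.501% in sml1Δ SSDDCS and 3.32% in sml1Δ, and 23 origins had risen in sml1Δ SSDDCS against 92 in sml1Δ. The size of this gap depended on the settings, with 91 against 133 at a threshold of 3% and 2 against 36 at 8%. It was 49 against 93 with a 5-bin window and 4 against 64 with a 15-bin window. The contrast of origins over distant bins was 2.14 points in sml1Δ SSDDCS and 4.39 points in sml1Δ. SSDDCS minus sml1Δ at origins then had a median of -1.16 points, above 0 at 123 origins and below 0 at 196. Across these 319 origins Pearson's r was 0.376. The bulk factor of sml1Δ SSDDCS was still the lower one of this pair, so the amounts of replicated DNA were not equal. The bulk factors come from flow cytometry and were taken as deposited.

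The annotation calls some origins putative. Of the putative origins with a value, 18 of 44 had risen at 15 min in sml1Δ SSDDCS and 7 of 43 in sml1Δ. Of the other origins, 196 of 276 (71.0%) had risen in sml1Δ SSDDCS and 85 of 276 (30.8%) in sml1Δ, where 19.7% of all bins had risen in sml1Δ SSDDCS and 7.49% in sml1Δ.

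Risen bins formed 227 runs of 3 or more bins at 15 min in sml1Δ SSDDCS and 90 in sml1Δ, here called zones. At 10 min there were 30 zones in sml1Δ SSDDCS and 0 in sml1Δ, and at 5 min there were 6 in sml1Δ SSDDCS and 1 in sml1Δ. An annotated origin lay inside 189 of the 227 zones of sml1Δ SSDDCS (83.3%) and inside 78 of the 90 zones of sml1Δ (86.7%). The median zone was 10 kb long in sml1Δ SSDDCS and 9 kb in sml1Δ, and the longest was 22 kb in sml1Δ SSDDCS and 20 kb in sml1Δ, so zones differed in number far more than in length. A risen bin of the other strain lay in 98 of the 227 zones of sml1Δ SSDDCS (43.2%) and in 86 of the 90 zones of sml1Δ (95.6%). Any risen bin in the zone was enough, and 19.7% of all bins had risen in sml1Δ SSDDCS and 7.49% in sml1Δ. The shares of equally long runs placed anywhere that would hold an origin or such a bin were not computed.

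The longest zones of sml1Δ SSDDCS with no risen sml1Δ bin each held an annotated origin. The longest, of 22 kb, was at chrXVI:679001-701000 and reached over 15 genes as far as TEF1, which encodes translation elongation factor EF-1 alpha. Its highest bin was at 8.77% in sml1Δ SSDDCS and 3.76% in sml1Δ at 15 min. The next was 18 kb at chrIV:627001-645000 from RLI1 to GRX3, with 9.81% in sml1Δ SSDDCS and 2.08% in sml1Δ at its highest bin. A zone of 14 kb at chrVII:156001-170000, around ARS707, had the largest contrast of the 5, with 13.6% in sml1Δ SSDDCS and -0.0490% in sml1Δ. The remaining zones were 17 kb at chrI:27001-44000 and 15 kb at chrXV:486001-501000.

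Some zones lay 5 kb or more from any annotated origin, 25 of 227 in sml1Δ SSDDCS and 5 of 90 in sml1Δ. Among the 5, the highest bin of chrI:16001-19000 was already at 6.71% at 5 min in sml1Δ. Among the 25, that of chrII:536001-539000 was already at 5.71% at 5 min in sml1Δ SSDDCS. Of the 25, 6 held a risen sml1Δ bin, and 15 were 20 kb or more from an origin. A zone at chrXV:429001-443000, over ASE1 (a microtubule bundling protein) and SLD7 and 46.8 kb from an annotated origin, was at 14.3% in sml1Δ SSDDCS and 8.83% in sml1Δ at its highest bin at 15 min. Another near the right end of the same chromosome, at chrXV:1046001-1060000 over the iron reductase gene FRE3 and 64.4 kb from an annotated origin, was at 13.4% in sml1Δ SSDDCS and 10.9% in sml1Δ. Both strains thus had early peaks where the annotation used here lists no origin, and that annotation is not a full list of yeast origins. A zone at chrVIII:352001-365000 that contains NDT80, a meiotic transcription factor gene, had risen in sml1Δ SSDDCS alone, with 9.31% in sml1Δ SSDDCS and 1.28% in sml1Δ at its highest bin. The study describes NDT80 as near active origins and deleted ARS816 and ARS818 beside it. ARS816 was not analysed here, and ARS818, the nearest annotated origin, lies 34.8 kb from NDT80.

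Only 4 zones of sml1Δ held no risen sml1Δ SSDDCS bin, and 3 of them were on chromosome I. Of these 3, the zone at chrI:16001-19000 did not rise over the onset. Its highest bin was at 6.71% at 5 min and 6.22% at 15 min in sml1Δ. The longest of the 4, at chrI:168001-180000 around ARS110, had 1.75% in sml1Δ SSDDCS and 9.51% in sml1Δ at its highest bin. The fourth, at chrIV:461001-466000, lay over ARS1 and GAL3, and had 2.33% in sml1Δ SSDDCS and 6.195% in sml1Δ.

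Centromere flanks had a mean near the bulk value in both strains at 15 min, but in sml1Δ more of their bins had risen than of all bins. Bins within 10 kb of a centromere averaged -0.108%, -0.437% and -0.373% relative to the bulk value at 5, 10 and 15 min in sml1Δ SSDDCS, against -0.0648%, -0.600% and 0.433% in sml1Δ. Of these bins 21.4% had risen at 15 min in sml1Δ SSDDCS and 20.8% in sml1Δ, beside 19.7% of all bins in sml1Δ SSDDCS and 7.49% in sml1Δ. At 15 min the mean of a chromosome ranged from -8.24% to 3.91% with a median of 0.469% in sml1Δ SSDDCS, and from -9.38% to 4.77% with a median of 0.650% in sml1Δ. CEN6 was the lowest in both strains, at -8.24% in sml1Δ SSDDCS and -9.38% in sml1Δ. CEN12 was the highest in sml1Δ SSDDCS, at 3.91% against 2.44% in sml1Δ, and CEN1 was the highest in sml1Δ, with 0.143% in sml1Δ SSDDCS and 4.77% in sml1Δ.

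The rise around centromeres lay a little outward of them. Bins 10 to 15 kb from a centromere averaged 2.88% at 15 min in sml1Δ SSDDCS and 2.27% in sml1Δ, and 35.6% of these bins had risen in sml1Δ SSDDCS and 31.5% in sml1Δ. Of the 33 origins within 20 kb of a centromere, 22 had risen in sml1Δ SSDDCS (66.7%) and 17 in sml1Δ (51.5%). The share in sml1Δ SSDDCS was that of all its origins (66.9%), whereas in sml1Δ it was above the 28.8% of all origins.

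Chromosome ends were uneven. Bins within 20 kb of an end averaged -0.706%, -0.948% and 0.511% at 5, 10 and 15 min in sml1Δ SSDDCS, against 0.695%, -0.0909% and -0.215% in sml1Δ. At 15 min, 16.7% of these bins had risen in sml1Δ SSDDCS and 1.44% in sml1Δ, where 19.7% of all bins had risen in sml1Δ SSDDCS and 7.49% in sml1Δ. Of the 18 ends with 10 or more bins, 12 were higher in sml1Δ SSDDCS and 6 were lower, by between 6.33 points higher and 5.95 points lower. The right end of chromosome XVI was at 5.92% in sml1Δ SSDDCS and -0.404% in sml1Δ, and the left end of chromosome V, which holds ARS503, was at 5.92% in sml1Δ SSDDCS and 0.226% in sml1Δ. The left end of chromosome III, which holds HML, was low in both strains, at -5.67% in sml1Δ SSDDCS and -9.01% in sml1Δ. Of the 25 origins within 30 kb of an end, 8 (32.0%) had risen in sml1Δ SSDDCS and 2 (8.0%) in sml1Δ. Of the 294 origins farther from an end, 70.1% had risen in sml1Δ SSDDCS and 30.6% in sml1Δ. The share near ends was thus the lower one in both strains.

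All 16 chromosomes had more risen bins in sml1Δ SSDDCS at 15 min. The share ranged from 16.7% on chromosome I to 22.6% on chromosome XI in sml1Δ SSDDCS, and from 4.31% on chromosome XIV to 11.2% on chromosome I in sml1Δ. Chromosome I thus had the lowest share in sml1Δ SSDDCS and the highest in sml1Δ. Among origins, the share that had risen was between 38.5% (chromosome VI) and 80.0% (chromosome XVI) in sml1Δ SSDDCS, and between 7.69% (chromosome VI) and 47.4% (chromosome X) in sml1Δ. The median difference at origins was above 0 on every chromosome, between 1.40 points on chromosome VIII and 4.79 points on chromosome IV.

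Gene lists were read at the bin of each gene's midpoint, beside all genes, of which 19.9% (1211 of 6093) had risen at 15 min in sml1Δ SSDDCS and 7.52% (458 of 6093) in sml1Δ. The core histone genes, needed to pack new DNA, had risen at 4 of 8 in each strain, with a median difference of -1.33 points where that over all genes was -0.123 points. These 8 genes lie in pairs of neighbours whose 9-bin windows overlap, so the values within a pair are not independent. HTA1, which encodes histone H2A, was at 0.566%, 1.32% and 10.6% at 5, 10 and 15 min in sml1Δ SSDDCS, against -0.253%, 0.185% and 10.4% in sml1Δ. HHF2, which encodes histone H4, was at -0.672%, 1.29% and -8.38% in sml1Δ SSDDCS, against -0.198%, 0.266% and -8.89% in sml1Δ. HTA1 and HTB1 lie within 2 kb of ARS428. HHT2 and HHF2 were far below the bulk value at 15 min in both strains, and later timepoints were not read for them. HTA1 and HHF2 thus differed from each other far more than the strains did at either gene.

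The genes of licensing (ORC1 to ORC6, CDC6, TAH11 and MCM2 to MCM7) had risen at 4 of 14 in sml1Δ SSDDCS and at 1 of 14 in sml1Δ. CDC6, whose product loads the helicase, lies 2.41 kb from ARS1005 and was at 3.83%, 4.45% and 13.5% at 5, 10 and 15 min in sml1Δ SSDDCS, against 1.47%, 0.925% and 3.31% in sml1Δ. ORC4, a subunit of the origin recognition complex, was at -0.196%, -2.86% and -7.02% in sml1Δ SSDDCS, against 1.23%, 0.0760% and -2.98% in sml1Δ. MCM7, a helicase subunit, was at -1.43%, -0.532% and 5.30% in sml1Δ SSDDCS, against -0.297%, 1.90% and 5.03% in sml1Δ. Of the 14 genes, 10 were higher and 4 were lower in sml1Δ SSDDCS, where 2973 of 6091 genes were higher and 3118 were lower. The shares risen were 28.6% in sml1Δ SSDDCS and 7.14% in sml1Δ, beside 19.9% and 7.52% of all genes.

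The 6 over-expressed genes had risen at 1 of 6 in sml1Δ SSDDCS and at 2 of 6 in sml1Δ. Over all genes the share was 19.9% in sml1Δ SSDDCS and 7.52% in sml1Δ, and 6 genes are too few to set against it. SLD7, in the zone on chromosome XV described above, was at 9.50% at 15 min in sml1Δ SSDDCS and 6.13% in sml1Δ. DBF4, which encodes the regulatory subunit of the Cdc7 kinase, lies 4.25 kb from ARS418 and was at 4.53% in sml1Δ SSDDCS and 8.23% in sml1Δ. DPB11 was at -3.43% in sml1Δ SSDDCS and 1.08% in sml1Δ. In sml1Δ SSDDCS, reads of these genes can come from the native or the inserted copy, which cannot be told apart here.

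The genes that encode tRNAs had risen at 97 of 260 (37.3%) in sml1Δ SSDDCS and at 46 of 261 (17.6%) in sml1Δ, above the share of all genes in each strain. The ribosomal protein genes had risen at 26 of 130 (20.0%) in sml1Δ SSDDCS and at 4 of 130 (3.08%) in sml1Δ. Over all genes the share was 19.9% in sml1Δ SSDDCS and 7.52% in sml1Δ. NDT80 was at 0.229%, 2.17% and 7.39% at 5, 10 and 15 min in sml1Δ SSDDCS, against 0.363%, -0.969% and 0.888% in sml1Δ. IME2, which encodes a meiotic kinase, was at 3.54% at 15 min in sml1Δ SSDDCS and -0.146% in sml1Δ, so it had not risen in either strain. THI12 had no smoothed value.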

How the data were processed

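Genomic DNA of 24 synchronised samples was sequenced, and the 6 tables at 5, 10 and 15 min are used here. The authors mapped reads to S288C (R64, sacCer3) with Bowtie2 2.2.6, and the labels also list SAMtools 1.7.2 and bedtools 2.26.0. They deposited, per 1-kb bin, the ratio of uniquely mapped reads to those in G1, scaled to a bulk factor (also a ratio) from flow cytometry. Replicates and read counts were not part of the tables, so precision was taken from neighbouring bins.

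The ratio was divided by its factor and smoothed over 9 bins (at least 5 with a value) with Python 3.11.15, numpy 2.4.6 and pandas 2.3.3, and the scripts were tested on simulated data. Tables held 11313 to 11321 bins. Origins, centromeres and genes came from RefSeq (R64), and an origin or gene took the value of its midpoint bin. The percent of cells replicated is the smoothed ratio minus 1. Origins were named as the 8 highest per strain at 15 min, the 8 largest and 5 most negative differences (all 10 kb apart), and listed early, late and silent origins (ARS416 is annotated as ARS1, and ARS821 is not reported here). ARS425, the origins highest at 10 min or risen in sml1Δ alone, and the zones far from origins or of sml1Δ were chosen after their values were seen. Members and lists were chosen with earlier results of these data known. Smoothing window, moving median, denominator, GC content, outlying bins, threshold, origin position and bulk factor were varied.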

Additional observations from a re-analysis of the deposited data

How the results depend on the processing

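Of 256 values under 13 alternatives, 218 stayed within 1.5 times (counts and shares) or within the noise of a 9-bin mean (other values), 37 moved and 1 turned sign. Of the 218, 5 turned sign within the noise, where no direction was called. For means over many bins the noise of a 9-bin mean is a wide margin. With the 5 min library of the strain as denominator, chromosome ends averaged -0.0796% at 10 min and 1.45% at 15 min in sml1Δ SSDDCS, and -0.657% and -0.803% in sml1Δ. With that denominator, with GC regression and with outlying bins removed, counts and shares stayed within 1.5 times. The value that turned beyond the noise was the median SSDDCS minus sml1Δ difference at origins, 3.45 points at equal time and -1.16 points at the nearest bulk factor, since that setting compares another timepoint. The 10 min values moved most. Origins risen at 10 min were 49 in sml1Δ SSDDCS and 5 in sml1Δ with a 5-bin window, 4 in sml1Δ SSDDCS with a 15-bin window, 91 in sml1Δ SSDDCS and 7 in sml1Δ at a threshold of 3%, 2 in sml1Δ SSDDCS at 8%, 41 in sml1Δ SSDDCS and 2 in sml1Δ with the highest bin within 2 kb, and 1 in sml1Δ with a moving median. Bins risen at 10 min in sml1Δ SSDDCS were 5.04% with 5 bins, 0.363% with 15 bins, 3.19% with the median, 10.2% at 3% and 0.0885% at 8%. Those in sml1Δ were 0.629% with 5 bins, 0% with 15 bins, 0.301% with the median, 2.21% at 3% and 0% at 8%. The share was 0% in both strains when counted at 25% or more of cells replicated from the deposited ratio. At 15 min the shares were 7.93% in sml1Δ SSDDCS and 2.40% in sml1Δ at 8%, 14.4% in sml1Δ at 3%, and 63.0% in sml1Δ SSDDCS and 1.00% in sml1Δ by cells replicated. Origins risen at 15 min at 8% were 124 in sml1Δ SSDDCS and 36 in sml1Δ, of which 26 were shared, and 54 were shared with 15 bins. Origins shared by sml1Δ SSDDCS at 10 min and sml1Δ at 15 min were 25 with 5 bins, 3 with 15 bins, 56 at 3% and 1 at 8%. The origin contrast of sml1Δ SSDDCS at 15 min was 7.18 points with 15 bins. With the sml1Δ bulk factors the median ratio of sml1Δ SSDDCS was 1.021 at 10 min and 1.135 at 15 min. No paired analysis was possible because there was 1 sample per strain and timepoint. Read depth is unknown, so its limits could not be set.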
